A study of Mus musculus with 23 samples.

Results

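Slc15a2, Cd200, Dkk3, Prom1 and Galnt11 encode membrane, secreted or glycosylation proteins. They were 5 of the 8251 genes of an expression array study of the mouse nucleus accumbens, and were picked because their messenger RNA level differed between a pair of selected mouse lines. Their differences between the lines are therefore given as a description, with no test. All probe sets listed for these genes were used, which made 6 of the 12488 on the array, with 2 for Prom1 and 1 for each of the others. All 6 gave values above the floor of the deposited table on all 23 arrays, so no gene of the set was lost to a filter on low values.

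The lines were derived from a stock of C57BL/6J and DBA/2J ancestry and selected for a high (HMACT, here HIGH) or a low (LMACT, here LOW) acute response to methamphetamine. This psychostimulant drives dopamine out of nerve terminals. Mice received saline (SAL) or 2 mg/kg methamphetamine (MA), and tissue was collected 1 hour after the injection. Each array measured a 4-way pool of nucleus accumbens tissue, a ventral striatal region with dense dopamine input, and there were 6 HIGH SAL, 6 HIGH MA, 6 LOW SAL and 5 LOW MA arrays. The mean age of the pooled animals was 77.25 to 154 days in HIGH and 60 to 127.5 days in LOW. The labels name only this pair of lines and no unselected control, so selection for the drug response and any other difference between these populations cannot be told apart. They do not say how animals were shared among pools, so p-values here reflect variation among pools, and precision is limited by how many arrays there were.

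The 5 genes act at the cell surface or on the way to it. Slc15a2 encodes the proton-coupled peptide transporter PEPT2, which takes up dipeptides and tripeptides and in brain is known from astrocytes and the choroid plexus. Cd200 encodes a membrane glycoprotein, abundant on neurons, that binds the CD200 receptor on microglia and restrains them. Prom1 encodes prominin-1 (CD133), a cholesterol-binding protein of membrane protrusions. Dkk3 encodes a divergent secreted member of the Dickkopf family, whose classical members block the Wnt co-receptors LRP5 and LRP6. Galnt11 encodes an enzyme of the Golgi apparatus that attaches the first sugar of mucin-type O-glycans to proteins on their way to the cell surface.

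Promoter sequences were available for 4 of the 5 genes in RefSeq (GRCm38.p6), and Dkk3 was not matched. The 100 bases just upstream of the annotated start are shown because CREB, a factor activated by dopamine receptor signalling through cyclic AMP, binds the cyclic AMP response element TGACGTCA and its shorter core TGACG. Capitals mark these motifs on either strand, and each sequence is written 5′ to 3′ in the direction of its gene.

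Galnt11: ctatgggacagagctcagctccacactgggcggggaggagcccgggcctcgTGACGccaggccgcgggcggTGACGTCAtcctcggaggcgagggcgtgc
Slc15a2: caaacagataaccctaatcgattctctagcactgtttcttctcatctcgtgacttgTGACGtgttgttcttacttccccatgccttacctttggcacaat
Cd200: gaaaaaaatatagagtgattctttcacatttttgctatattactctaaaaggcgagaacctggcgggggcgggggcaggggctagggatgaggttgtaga
Prom1: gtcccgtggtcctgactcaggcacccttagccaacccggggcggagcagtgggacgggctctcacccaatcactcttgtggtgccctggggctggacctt

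These windows lie at chr5:25222772-25222871 on the plus strand (Galnt11), chr16:36784963-36785062 on the minus strand (Slc15a2), chr16:45409054-45409153 on the minus strand (Cd200) and chr5:44101737-44101836 on the minus strand (Prom1). The search covered the 250 bases before the start, on both strands. The Galnt11 window shown held the full element at position -29, a separate core at -49 and another at -240, outside the stretch shown. The window of a second annotated Galnt11 start, at chr5:25246123-25246372, held no full element and a core at -248. The full element was present in 1.55% of the 32851 such windows, and the core, which overlaps it, in 17.8%. Slc15a2 held a core at -44. The single core of Cd200 lay at -200, outside the stretch shown. The main Prom1 window held neither, but had the AP-1 motif TGANTCA at -88, a motif found in 6.75% of windows. The window of a second Prom1 start also held neither and had the AP-1 motif at -189. These matches describe letters in a window and do not show binding.

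Values are on a log2 scale, which was inferred from the deposited numbers, so a difference of 1 is 2-fold. A moderated linear model (limma) was fitted to the 4 group means over all 8251 genes, and a gene was called at a Benjamini-Hochberg adjusted p under 0.05. In the mean line difference, taken over both injections, 16 genes (0.194%) were called and 1045 (12.7%) had an unadjusted p under 0.05. The 5 genes belong to those 16, and they were chosen for it, so nothing is read from that count. After saline or after methamphetamine alone no gene was called for the line difference, while 1256 and 354 genes had an unadjusted p under 0.05. In these bulk samples, fewer cells of a type and less RNA per cell cannot be told apart.

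Slc15a2, Cd200 and Dkk3 were higher in HIGH, and Prom1 and Galnt11 were higher in LOW. Slc15a2, the peptide transporter, had the largest difference of the 5 as a mean over injections and after saline, while after methamphetamine that of Dkk3 was slightly larger. Its values ran from 4.99 through a median of 5.38 to 5.96 in HIGH SAL, and from 4.997 through 5.31 to 5.77 in HIGH MA. The LOW SAL values ran from 3.55 through 4.07 to 4.99, and the LOW MA arrays read 4.44, 3.81, 4.47, 4.99 and 3.83. After saline the highest LOW array lay level with the lowest HIGH array (4.992 and 4.991), and the other 5 arrays of each line were separated. After methamphetamine the lines did not overlap, although the margin was only 4.997 against 4.991. The HIGH minus LOW difference was 1.23 (SE 0.235) after saline and 1.05 (SE 0.246) after methamphetamine, with a mean of 1.14 (SE 0.170), or 2.21-fold. In the order of group means, HIGH SAL (5.38 ± 0.35, SD, n = 6) and HIGH MA (5.36 ± 0.27, n = 6) came first, then LOW MA (4.31 ± 0.50, n = 5) and LOW SAL (4.15 ± 0.50, n = 6). The means within each line differed by less than their SD.

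Cd200, the microglia-restraining glycoprotein, was also higher in HIGH. In HIGH it ranged from 5.67 through 6.18 to 6.66 after saline and from 5.84 through 6.38 to 6.73 after methamphetamine. In LOW it ranged from 5.37 through 5.53 to 5.80 after saline, and the methamphetamine arrays read 5.13, 5.35, 5.57, 5.91 and 5.55. The lines overlapped slightly after each injection, with 5 of 6 HIGH arrays above every LOW array in both cases. The difference was 0.59 (SE 0.166) after saline and 0.87 (SE 0.174) after methamphetamine, with a mean of 0.73 (SE 0.120), or 1.66-fold. Group means ran from HIGH MA (6.37 ± 0.31, SD, n = 6) and HIGH SAL (6.17 ± 0.37, n = 6) to LOW SAL (5.57 ± 0.16, n = 6) and LOW MA (5.50 ± 0.29, n = 5). Neighbours within a line again lay within 1 SD.

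Dkk3, the secreted Dickkopf relative, was higher in HIGH mainly on the methamphetamine arrays. It ran from 6.27 through 6.47 to 7.08 in HIGH SAL and from 5.90 through 6.67 to 6.94 in HIGH MA. In LOW SAL it ran from 6.04 through 6.15 to 6.88, and the LOW MA arrays read 5.88, 5.69, 5.19, 5.49 and 5.42. Only 1 HIGH array exceeded every LOW array after saline, where LOW replicate 2 (6.88) stood high. After methamphetamine all 6 HIGH arrays lay above all 5 LOW arrays, by a margin of 5.90 against 5.88. The difference was 0.31 (SE 0.181) after saline and 1.07 (SE 0.190) after methamphetamine, with a mean of 0.69 (SE 0.131), or 1.61-fold. The HIGH MA (6.60 ± 0.38, SD, n = 6), HIGH SAL (6.57 ± 0.29, n = 6) and LOW SAL (6.26 ± 0.31, n = 6) means followed each other within about 1 SD, and LOW MA (5.53 ± 0.26, n = 5) lay below them.

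Prom1, the protrusion protein, was lower in HIGH on every array. HIGH SAL ran from 4.66 through 5.68 to 5.98 and HIGH MA from 5.73 through 5.92 to 6.13. The LOW SAL range was 6.28 through 6.56 to 7.11, and LOW MA read 6.97, 6.87, 6.13, 6.41 and 6.30. All 12 HIGH arrays lay below all 11 LOW arrays, though the nearest pair was close (6.127 and 6.130). Such separation over all arrays was found for 2 of 8251 genes (0.0242%), the other being Blcap, which was named after its values were seen. The HIGH minus LOW difference was -1.08 (SE 0.210) after saline and -0.61 (SE 0.220) after methamphetamine, with a mean of -0.85 (SE 0.152), so LOW was 1.80-fold higher. From high to low, the means were LOW SAL (6.64 ± 0.33, SD, n = 6), LOW MA (6.54 ± 0.36, n = 5), HIGH MA (5.92 ± 0.13, n = 6) and HIGH SAL (5.56 ± 0.53, n = 6). The pair within LOW and the pair within HIGH each lay within the larger of their SDs.

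The second Prom1 probe set was much nearer to the floor of 2.3, at 2.49 to 3.03 in HIGH and 3.02 to 3.83 in LOW. On this probe set HIGH was lower too, by a log2 difference of -0.46 (SE 0.0882) as the mean over injections, by -0.53 (SE 0.122) after saline and by -0.39 (SE 0.128) after methamphetamine. The lines overlapped on it after saline (3.017 in LOW and 3.023 in HIGH) and not after methamphetamine. Both probe sets thus ordered the lines alike, with a smaller difference where the signal was near the floor.

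Galnt11, the O-glycosylation enzyme, was also higher in LOW. Its SD within groups, pooled over the 4 groups, was the smallest of the 5 (0.18), although in HIGH MA that of Prom1 was smaller. Its difference was the smallest of the 5 as a mean over injections and after methamphetamine, and after saline that of Dkk3 was smaller. HIGH SAL ran from 7.45 through 7.75 to 7.82 and HIGH MA from 7.45 through 7.85 to 8.05. LOW SAL ran from 7.93 through 8.17 to 8.29, and LOW MA read 8.34, 8.03, 8.51, 8.01 and 8.28. The lines did not overlap after saline, and after methamphetamine 1 HIGH array (8.05) reached into the LOW range. The difference was -0.43 (SE 0.101) after saline and -0.40 (SE 0.106) after methamphetamine, with a mean of -0.42 (SE 0.0733), so LOW was 1.33-fold higher. The order of means was LOW MA (8.23 ± 0.21, SD, n = 5), LOW SAL (8.13 ± 0.14, n = 6), HIGH MA (7.83 ± 0.21, n = 6) and HIGH SAL (7.71 ± 0.14, n = 6), and the means within a line differed by less than 1 SD.

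After saline, 2 of the 5 genes (Prom1 and Galnt11) had line ranges that did not overlap, against 156 of 8251 genes (1.89%). After methamphetamine, 3 of the 5 (Slc15a2, Dkk3 and Prom1) did not overlap, against 43 genes (0.521%). The members were chosen on these values, so these counts are a description.

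**Figure D1:**
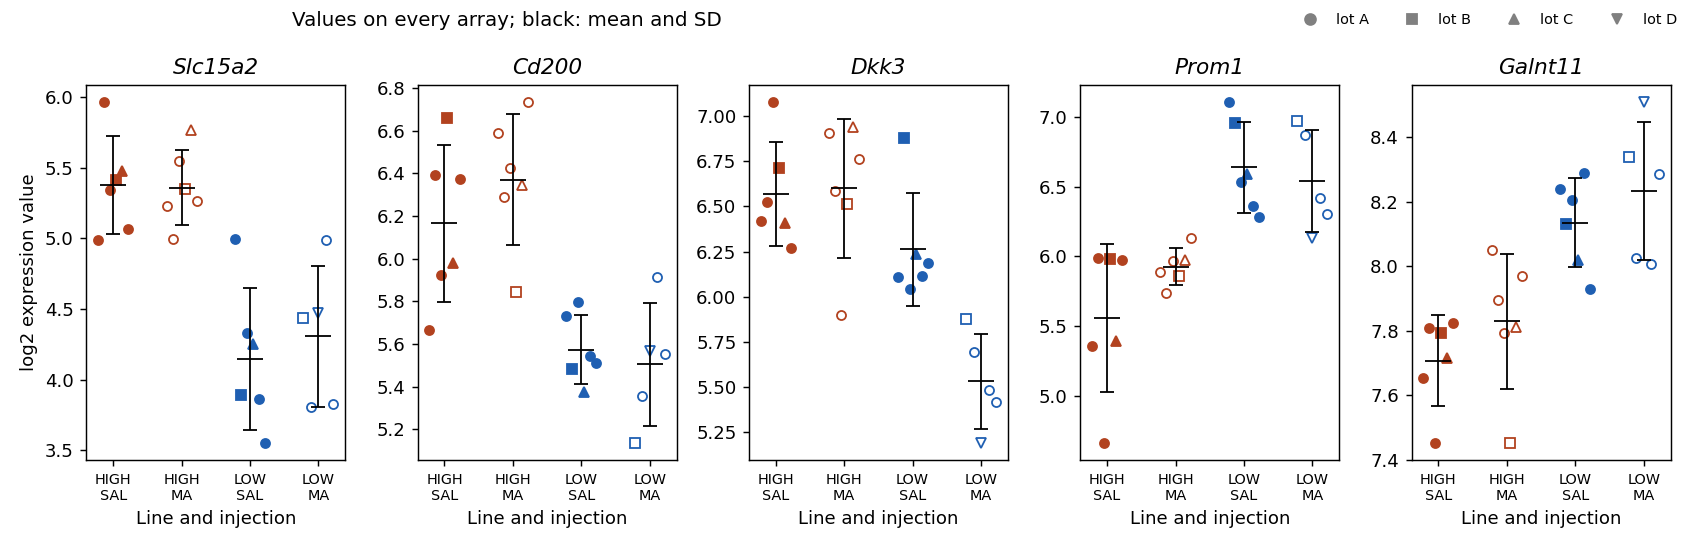
Log2 expression value (vertical axis) of each of the 5 genes on all 23 arrays by line and injection, filled for saline and open for methamphetamine, with the chip lot as the symbol and the group mean and SD in black. Slc15a2 and Cd200 sit higher in HIGH, Prom1 and Galnt11 sit higher in LOW, and Dkk3 is lowest in LOW after methamphetamine (5.19 to 5.88).

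The labels name 4 chip lots: A with 15 arrays from all groups, B with 4 arrays, 1 per group, and C and D, counted as 1 lot here, with another 4, 1 per group. Of 30 comparisons of the lines, one for each gene, injection and lot, 29 had the direction of the mean over all arrays. The exception was Dkk3 after saline in lot B, at -0.17, where the LOW array was the high replicate 2. All lots were among the arrays that served to choose the genes, and lots B and C with D have 1 array per group and hence no error of their own. Lot A alone gave mean line differences of 1.10 (SE 0.260) for Slc15a2, 0.67 (SE 0.130) for Cd200, 0.73 (SE 0.156) for Dkk3, -0.84 (SE 0.210) for Prom1 and -0.33 (SE 0.0770) for Galnt11.

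The size of the difference moved more between lots for some genes than for others. For Slc15a2 the difference after saline was 1.16, 1.52 and 1.23 in lots A, B and C with D, and after methamphetamine it was 1.05, 0.91 and 1.29. Prom1 was steady after saline, at -1.08, -0.98 and -1.19, and spread after methamphetamine, at -0.60, -1.11 and -0.16. Galnt11 after methamphetamine was -0.18 in lot A, against -0.40 over all arrays, and -0.89 and -0.70 in the small lots. Cd200 after saline was 0.44 in lot A, 1.18 in lot B and 0.60 in lots C and D. Dkk3 after methamphetamine was 1.01, 0.63 and 1.75.

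**Figure D2:**
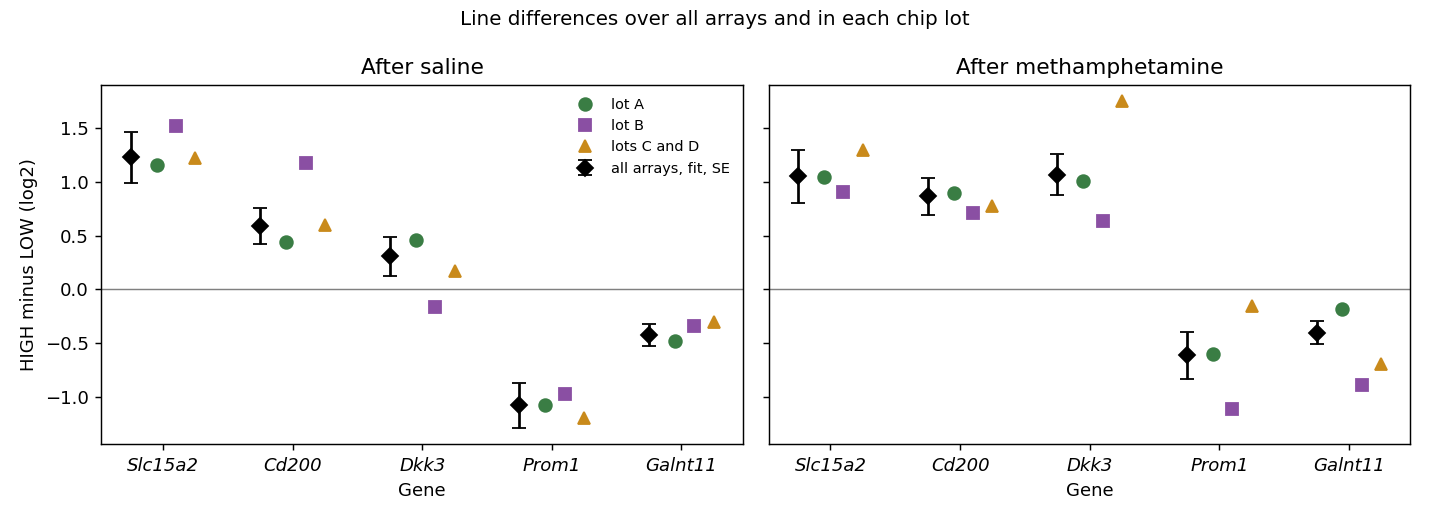
HIGH minus LOW log2 difference (vertical axis) of each gene after saline and after methamphetamine, over all arrays with its SE (diamonds) and in each chip lot. Only Dkk3 after saline in lot B (-0.17) lies on the other side of 0 from the value over all arrays.

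The HIGH pools were older than the LOW pools, with mean ages of 114.65 ± 34.9 days (SD, n = 12) and 76.6 ± 22.5 days (SD, n = 11). In each line the ages fell into separate classes. In HIGH, 6 pools were 77.25 to 88 days and 6 were 141.5 to 154 days, and in LOW 9 pools were 60 to 72.75 days and the other 2 were 114.75 and 127.5 days. In the pools under 100 days alone, the mean line differences were 1.04 for Slc15a2, 0.78 for Cd200, 0.68 for Dkk3, -0.77 for Prom1 and -0.44 for Galnt11. With mean age as a covariate they were 1.28, 0.78, 0.71, -0.63 and -0.40 in the same order, so all kept their direction. Among the pools under 100 days, every HIGH pool was still older than every LOW pool, so line and age cannot be told apart there. All pools over 100 days were in chip lot A.

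Within groups, the slope on age was tested, since the choice of genes did not use it. With limma 0 of 8251 genes (0%) were called and 588 had an unadjusted p under 0.05. Prom1 had a slope of -0.057 log2 per 10 days of age (SE 0.0240, unadjusted p = 0.0285, adjusted p = 0.66 in limma's fit over all genes), which does not pass, and -0.038 without HIGH SAL replicate 3. Its mean was 5.88 ± 0.25 (SD, n = 6) in the younger and 5.60 ± 0.51 (n = 6) in the older HIGH pools, and 6.66 ± 0.33 (n = 9) and 6.29 ± 0.02 (n = 2) in LOW. In both lines the older pools thus read lower for Prom1, and in HIGH the older class also holds the lowest array of all, HIGH SAL replicate 3. For Slc15a2 the slope was -0.035 (SE 0.0296), and -0.019 without LOW SAL replicate 6, with 5.39 ± 0.23 and 5.35 ± 0.37 in the younger and older HIGH pools, and 4.34 ± 0.45 and 3.69 ± 0.20 in LOW. The slopes of Cd200 (-0.013, SE 0.0215), Dkk3 (-0.0057, SE 0.0237) and Galnt11 (-0.0041, SE 0.0132) were each smaller than their SE.

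**Figure D3:**
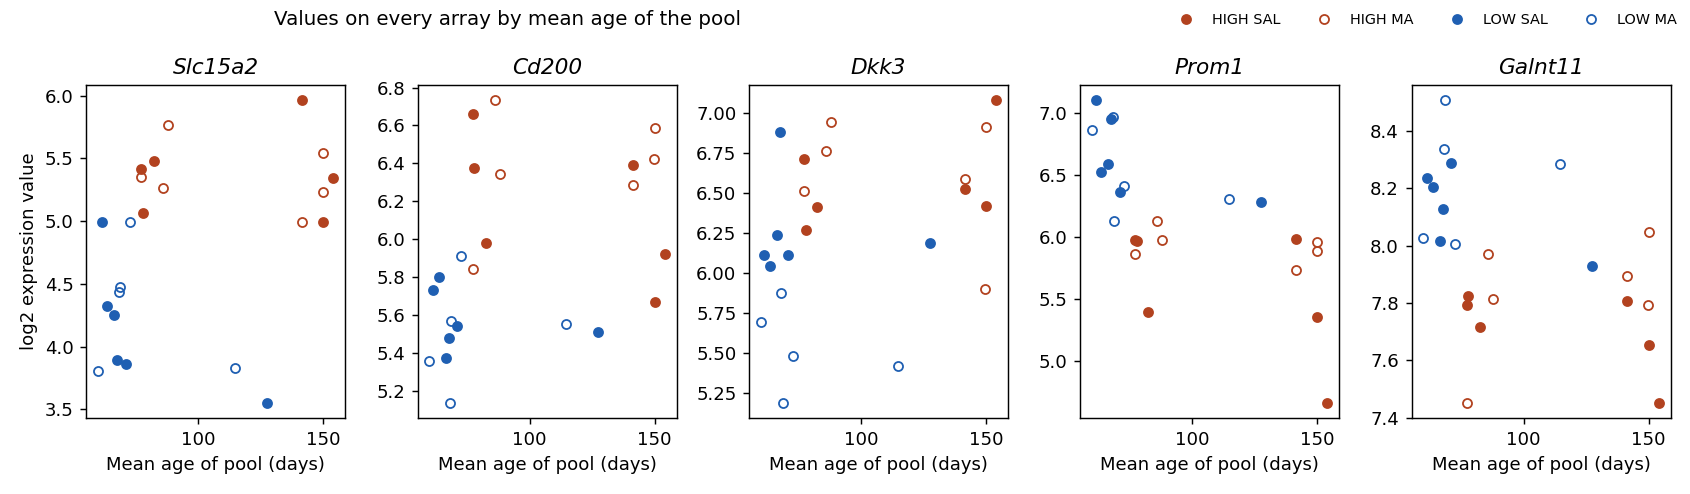
Log2 expression value (vertical axis) of each gene against the mean age of the pool in days, for all 23 arrays, coloured by line and filled for saline. Among the pools under 100 days, the nearest HIGH and LOW points are 5.06 and 4.99 for Slc15a2, 6.127 and 6.130 for Prom1 and 7.97 and 8.01 for Galnt11. Those of Cd200 and Dkk3 overlap. The genes were chosen on these values and the share over all genes was not counted, so nothing is read from this. Only 2 LOW pools are above 100 days.

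Some arrays and RNA measures also differed between groups. An axis fitted to the residuals of 5308 genes from their group means held 62.1% of that variance, and on it 4 arrays stood apart (HIGH SAL replicates 3 and 5, HIGH MA replicate 3 and LOW MA replicate 4). Without them the mean line differences were 1.13 (SE 0.210) for Slc15a2, 0.79 (SE 0.143) for Cd200, 0.67 (SE 0.110) for Dkk3, -0.77 (SE 0.132) for Prom1 and -0.35 (SE 0.0770) for Galnt11, close to those over all arrays. Residuals of Prom1 followed the axis most closely (Pearson r = -0.51 over 23 arrays), then Dkk3 (-0.28) and Slc15a2 (0.19), as a description. The 3′ minus 5′ difference of the Gapdh and actin control probe sets, a measure of RNA integrity and labelling, was larger in LOW. It averaged 2.11 ± 0.55 (SD, n = 6) in HIGH SAL, 2.35 ± 0.29 (n = 6) in HIGH MA, 2.63 ± 0.13 (n = 6) in LOW SAL and 2.87 ± 0.96 (n = 5) in LOW MA, where the median was 2.48 and 1 array reached 4.57. Its part in the line differences was not tested.

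The genes were chosen for their line difference and not for methamphetamine against saline, which was therefore tested. The line differences after each injection use the same arrays, so tests in 1 line and of the interaction are not independent of that choice. As a mean of both lines, 2 of 8251 genes (0.0242%) were called and neither was one of the 5. The mean differences were 0.07 (SE 0.170, 95% interval -0.28 to 0.43) for Slc15a2, 0.07 (SE 0.120, -0.18 to 0.32) for Cd200, 0.13 (SE 0.152, -0.18 to 0.45) for Prom1 and 0.11 (SE 0.0733, -0.04 to 0.26) for Galnt11. For Dkk3 it was -0.35 (SE 0.131, -0.62 to -0.07), with an unadjusted p of 0.0156 and an adjusted p of 1. The adjusted p from limma was 1 for each of the 5. The second Prom1 probe set gave a mean difference of -0.02 (SE 0.0882). Without the 4 arrays apart Dkk3 was at -0.19 and Cd200 at 0.0010. For Slc15a2, Cd200, Prom1 and Galnt11 the upper ends of the intervals lay between 0.26 and 0.45, and the interval of Dkk3 reached down to -0.62.

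In LOW alone, limma called 0 of 8251 genes (0%), and 275 had an unadjusted p under 0.05. Dkk3 had the 6th smallest p-value there, but its LOW MA arrays also enter the line difference it was chosen for. The saline mean was 6.26 ± 0.31 (SD, n = 6) and the methamphetamine mean 5.53 ± 0.26 (n = 5), a limma log2 difference of -0.73 (SE 0.190, unadjusted p = 0.00109, adjusted p = 1). All 5 methamphetamine arrays lay below all 6 saline arrays, from 5.19 to 5.88 against 6.04 to 6.88, a separation found for 55 of 8251 genes (0.667%). In lots A, B and C with D the difference in LOW was -0.58, -1.002 and -1.05. Array weights (adjusted p = 0.0217) and the array axis as a covariate (adjusted p = 0.046) each put it past the threshold, and there 31 and 193 genes were called in place of 0. The axis was fitted to these same residuals, and only its part within groups was entered. It left the difference at -0.73 and took variance out of the error, so smaller p-values follow in part from its construction. The other alternatives gave adjusted p-values from 0.57 to 1, and the difference was -0.61 without LOW SAL replicate 2, the high array.

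In HIGH, limma called 1 gene (0.0121%), which was none of the 5. Dkk3 differed by 0.03 (SE 0.181), and its saline and methamphetamine values overlapped. Prom1 had the largest difference there, 0.37 (SE 0.210, unadjusted p = 0.0966, adjusted p = 1), and all 6 methamphetamine arrays lay above the saline mean of 5.56. Without HIGH SAL replicate 3, the lowest array at 4.66, it was 0.19. On the second Prom1 probe set, nearer to the floor, it was 0.05 (SE 0.122), with 4 of 6 methamphetamine arrays above the saline mean. None of the 5 had saline and methamphetamine ranges that did not overlap in HIGH, against 9 of 8251 genes (0.109%). Cd200 differed by 0.20 (SE 0.166), Galnt11 by 0.12 (SE 0.101) and Slc15a2 by -0.02 (SE 0.235) in HIGH. Without HIGH SAL replicate 1 the value of Cd200 was 0.105, and without HIGH SAL replicate 3 that of Galnt11 was 0.070. Without the 4 arrays apart, Dkk3 was at 0.26, Prom1 at 0.093, Cd200 at 0.086 and Galnt11 at 0.067 in HIGH. In LOW the values were -0.07 (SE 0.174) for Cd200, 0.10 (SE 0.106) for Galnt11, -0.10 (SE 0.220) for Prom1 and 0.16 (SE 0.246) for Slc15a2.

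The interaction asked whether the methamphetamine difference was the same in the lines. With limma 0 of 8251 genes (0%) were called and 216 had an unadjusted p under 0.05. Dkk3 had an interaction, HIGH minus LOW effect, of 0.76 (SE 0.263, 95% interval 0.21 to 1.31, unadjusted p = 0.0091, adjusted p = 0.86), the 18th smallest p-value. Prom1 had 0.47 (SE 0.304, -0.17 to 1.10), Cd200 0.27 (SE 0.241, -0.23 to 0.78), Slc15a2 -0.18 (SE 0.341, -0.89 to 0.53) and Galnt11 0.02 (SE 0.147, -0.28 to 0.33). The larger line difference of Dkk3 after methamphetamine than after saline is this interaction, and over all genes it did not pass. Since Dkk3 was chosen for its line difference, its p-values in LOW and for the interaction are read as a description. In lot A alone it was 0.55, and without the 4 arrays apart 0.90. The interaction of Prom1 was 0.29 without HIGH SAL replicate 3 and 0.086 with array weights, and that of Cd200 was 0.17 without HIGH SAL replicate 1. On the second Prom1 probe set the interaction was 0.14 (SE 0.176).

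**Figure D4:**
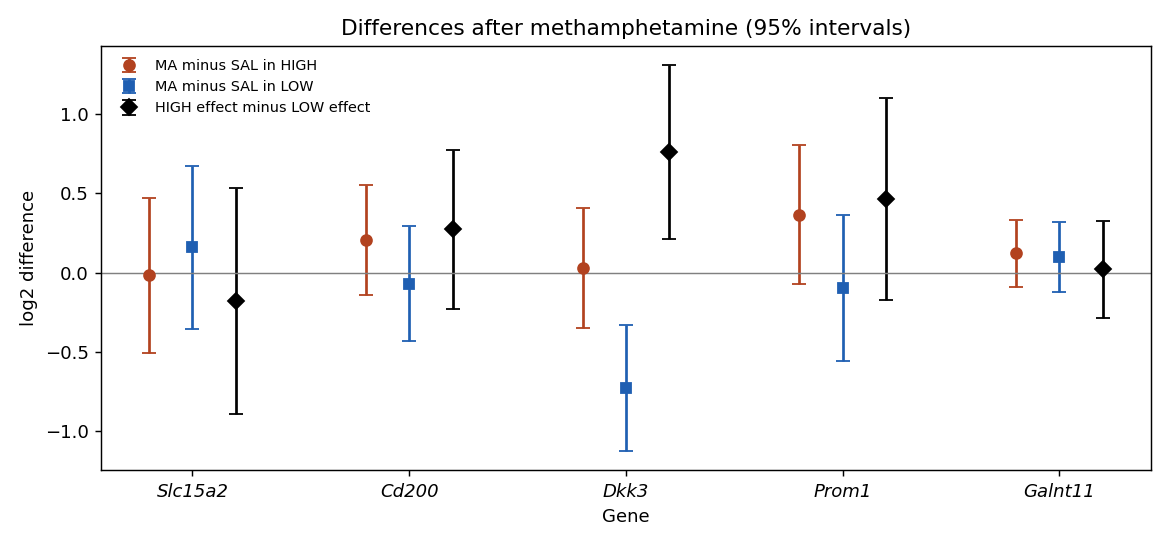
Methamphetamine minus saline log2 difference in HIGH (circles) and LOW (squares), and the difference of these effects (diamonds), with 95% intervals from limma. The intervals of Dkk3 in LOW (-1.13 to -0.33) and of its interaction (0.21 to 1.31) lie to 1 side of 0, before adjustment over 8251 genes. Dkk3 was chosen for its line difference on these same arrays.

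How alike genes varied from pool to pool was described by the Pearson r of residuals from the 4 group means over 23 arrays, among 5308 genes above the floor on at least 12 arrays. Arrays share their normalization and the axis above, so these values carry no test. The nearest genes to Slc15a2 were Cnpy2 (0.76), Rps29 (0.69) and Nobox (0.69), and those to Cd200 were Fahd1 (0.73), Itm2a (0.70) and Commd6 (0.69). Dkk3 was nearest to Il18 (0.82), Phka2 (0.73) and Vps29 (0.71). Prom1 was nearest to Pde7a (0.78), Mat2b (0.78) and Sqle (0.78), and Galnt11 to Tada1 (0.73), Cldn11 (0.69) and B3gnt2 (0.68). With the array axis removed as well, Cnpy2, Il18 and Tada1 stayed among the nearest 3 of their gene, and the other 12 did not. Among the 5 genes themselves r ran from -0.12 to 0.46, with the highest value for Cd200 and Galnt11, a pair that differs between the lines in opposite directions.

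Slc15a2 and Cd200 lie on chromosome 16 with 10 measured genes between them, Galnt11 and Prom1 on chromosome 5 with 59 between them, and Dkk3 on chromosome 7. The 10 measured genes on each side of each member were tested for the mean line difference. None of these neighbours was called, and of 20 each, 2 around Slc15a2, 5 around Cd200, 3 around Dkk3, 4 around Prom1 and 2 around Galnt11 had an unadjusted p under 0.05. Over all 6154 positioned genes not at the floor that share was 16.9%, against 10%, 25%, 15%, 20% and 10% around these genes. The neighbours with the smallest p-values were Kalrn near Slc15a2 (-0.28, SE 0.110), Phldb2 near Cd200 (-0.27, SE 0.104) and Ipo7 near Dkk3 (-0.60, SE 0.189). Near Prom1 it was Cpeb2 (-0.97, SE 0.263), which lies 2 measured genes away and is lower in HIGH like Prom1, and near Galnt11 it was Mapre3 (0.87, SE 0.315). Their adjusted p-values from limma ran from 0.175 to 0.330. Of the 20 neighbours of Slc15a2 and of Cd200, which share the 10 genes between them, 18 each had a negative difference. Around Dkk3 and Prom1 14 each were negative, and around Galnt11 7. The median difference was -0.056 around Slc15a2 and -0.18 around Cd200, against 0.0058 over the 6154 genes. The share of negative differences over those genes was not counted, so nothing is read from these counts.

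Genes that work with the 5 were read from lists of their pathways. None of the measured members of these lists was called in the mean line difference or the mean methamphetamine difference. Of them, Lap3, Dok2, Wnt7a, Axin2 and Dvl3 were above the floor on 1 array each, and Wnt1 and St3gal2 on 2 each. The directions and medians below thus rest in part on values near the floor. The median line difference over the 6154 positioned genes not at the floor was 0.0058, and each list's median is given against it. In peptide transport and dipeptide handling, 5 genes besides Slc15a2 were measured, 2 with a positive and 3 with a negative line difference. The median of -0.01 was the value of Lap3. The lysosomal dipeptidyl peptidase gene Dpp7 had the smallest p, at 0.32 (SE 0.135, adjusted p = 0.35). Of 5 partners of Prom1 and membrane microdomain genes, 3 were positive (median 0.17), with Flot2, which encodes a flotillin scaffold, at 0.32 (SE 0.163, adjusted p = 0.425).

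Of 8 measured genes of CD200 receptor signalling and other inhibitory pairs between neurons and microglia, 3 were positive and 5 negative (median -0.03). The phosphatase gene Ptpn6, which acts below inhibitory receptors, had the smallest p at 0.04 (SE 0.0138, adjusted p = 0.311), with group means of 2.35 to 2.40, just above the floor. Rasa1, a Ras inhibitor gene named after its value was seen, had a larger difference, at -0.76 (SE 0.286, adjusted p = 0.32). In the Dickkopf and Wnt list, 20 genes were measured besides Dkk3, 13 positive and 7 negative (median 0.01), and 14 were at the floor on every array, Dkk1 and Dkk2 among them. The Wnt receptor gene Fzd4 ranked first by p, at -0.66 (SE 0.188, adjusted p = 0.197), opposite in direction to Dkk3. Of 9 measured genes of mucin-type O-glycosylation, 5 were positive (median 0.01), and St6galnac2, a sialyltransferase gene, had the smallest p at 0.16 (SE 0.0976, adjusted p = 0.488).

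Cell type markers were read beside these results, since the members are known from different cells. No marker of the 11 lists was called for the line difference. Of 5 striatal projection neuron markers 4 were measured, with a summed level, as log2 of the sum, of 13.6 to 14.7 over all groups, and Rgs9 was at the floor. Averaged over injections, the 4 measured oligodendrocyte markers were all lower in HIGH (median -0.26). Their summed level was 12.04 to 13.1 in HIGH and 12.8 to 13.6 in LOW, and Cnp was at the floor. After saline only Mobp had a lower mean in HIGH (12.03 against 12.77). Mag (6.38 against 6.02), Mbp (11.30 against 11.29) and Mog (5.09 against 5.06) had higher means in HIGH after saline. Of 7 microglial markers 5 were measured, 3 positive and 2 negative (median 0.26), with summed levels of 10.1 to 11.3 in HIGH and 10.5 to 11.1 in LOW, while Cx3cr1 and Aif1 were at the floor. Astrocyte markers were 2 positive and 4 negative (median -0.11), at 13.1 to 13.7 in HIGH and 13.4 to 14.1 in LOW. Of the choroid plexus and ependymal markers Ttr was at the floor on every array. The 4 measured were 3 positive and 1 negative (median 0.13) and summed to 5.53 to 6.24. The remaining lists had median line differences of -0.11 (neurons, 4 genes), -0.07 (cortical excitatory neurons, 2), -0.31 (oligodendrocyte precursors, 1), -0.0048 (endothelium and pericytes, 7), -0.11 (meningeal fibroblasts, 2) and 0.31 (blood, 2). Neurod6 of the cortical neuron list and Alas2 of the blood list were above the floor on 1 array each. The part of cell composition in the differences of the 5 genes was not tested.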

How the data were processed

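Messenger RNA was measured in 23 nucleus accumbens pools, each on 1 Affymetrix array with biotin-labelled cRNA. The authors' deposited table holds log2 values, a scale inferred from their range of 2.23 to 16.36, already normalized between arrays; how they did so is not given in the sources used here, nor is the background correction. The submitters' processing notes list R 2.7.1 but not what it did. Values below 2.3 were treated as the floor and made up 44.2% of values, and 2089 genes lay there on every array. Of 12488 probe sets, 10833 had 1 gene in the platform annotation, 396 had several and 1193 had none listed. The probe set with the highest mean stood for a gene.

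Groups, ages and chip lots came from the labels. limma 3.58.1 in R 4.3.3 was fitted to 4 group means without covariates (the age slope adds mean age), with two-sided tests adjusted over 8251 genes and checked on simulated data. No 2 of the 23 arrays were copies: the smallest mean absolute difference over all probe sets in 253 pairs was 0.0736. The 5 genes and all lists were chosen with earlier results of these data known. Named besides them were the 3 genes with the highest residual correlation, and the list member and neighbour with the smallest p where none passed. The marker genes named were chosen after their values were seen. The full and core cyclic AMP response element and the AP-1 motif were searched on both strands of the 250 bases before each start; the TATA box, CCAAT and GC box motifs were searched too and are not described.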

Additional observations from a re-analysis of the deposited data

Results flagged for a closer look

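In LOW after saline, Dkk3 on replicate 2 read 6.88, and the next highest array read 6.24, a gap that is large against the range of the 6 arrays. It is the LOW saline array of lot B. In all, 24 groups of arrays (the 6 probe sets in 4 groups) were examined in this way, 1 was picked out, and chance picks out about 1 group in 20. Without this array the line difference of Dkk3 after saline was 0.43 in place of 0.31, its methamphetamine difference in LOW -0.61 in place of -0.73, and its interaction 0.64 in place of 0.76.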

How the results depend on the processing

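The mean line differences of the 5 genes kept their direction under 60 of 60 alternatives and when each array was left out (115 of 115). Over all comparisons 1318 of 1360 values counted as the same. For the line differences, which had no test, this meant the same direction and a shift under 1 pooled SD within groups. For the other comparisons it meant the same direction and side of the threshold. Leaving out dim genes, using all probe sets, trend and robust eBayes and the array axis cannot change the estimates of the mean line differences. The genes were also chosen on the line difference, so these counts are a description. With array weights, Slc15a2 differed by 1.47 between lines after methamphetamine, by -0.14 after methamphetamine as a mean and by -0.13 in LOW, Cd200 by -0.045 as a mean and Prom1 by 0.0155 in LOW, and the age slopes were 0.0036 (Cd200) and 0.0094 (Galnt11). Dkk3 in LOW passed with array weights (-0.67) and with the array axis (-0.73), where its age slope was 0.0040. Quantile normalization gave Slc15a2 0.0095 in HIGH, and chip lot gave Dkk3 an age slope of 0.0143. Lot A alone gave Galnt11 -0.18 between lines after methamphetamine, Slc15a2 -0.027 as a mean, Dkk3 -0.035 in HIGH, Galnt11 -0.059 in LOW and Dkk3 an age slope of 0.0065. Without the arrays that stand apart, Prom1 in LOW was 0.0029 and the age slope of Galnt11 0.0055. The cause was not tested.

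Leaving out 1 array at a time, methamphetamine differences ran from -0.099 to 0.1004 for Slc15a2 in HIGH, -0.010 to 0.330 in LOW and -0.014 to 0.157 as a mean. They ran from -0.036 to 0.173 for Dkk3 in HIGH, -0.171 to 0.024 for Cd200 in LOW and -0.208 to 0.0029 for Prom1 in LOW. The interaction of Galnt11 ran from -0.034 to 0.098, and age slopes from -0.021 to 0.0107 (Dkk3) and -0.0149 to 0.0033 (Galnt11).

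For the mean line difference the count of called genes was 16, against 1353 with the array axis, 830 with array weights, 46 without the arrays apart, 29 without the dimmest 40% of genes, 26 with quantile normalization, 1 with age and 1 in lot A alone, and 9 to 76 leaving out 1 array. After saline the line difference called 0 genes, against 1623 with the axis and 236 with array weights, and after methamphetamine 0, against 27 and 136. Likewise the axis and array weights gave 7 and 6 genes in place of 2 for the mean methamphetamine difference, 6 and 2 in place of 1 in HIGH, 193 and 31 in place of 0 in LOW and 322 and 0 in place of 0 for the interaction. The age slope called 0 in each. Counts with the axis tend to be raised by its construction, since it was fitted to the same residuals and entered only within groups. Other alternatives gave 0 to 5 genes in these comparisons. Many of the small methamphetamine differences, interactions and age slopes moved by over 1.5 times under an alternative or without 1 array. Same-numbered saline and methamphetamine pools of a line correlated from -0.62 to 0.88, with 8 of 11 pairs over 0.1. They also shared a chip lot, with C and D counted as 1, and had the same or similar mean ages. The labels do not say that the numbers pair the samples, and the main fits left any such pairing out. A replicate block gave 13 genes, and line differences of 1.13 (Slc15a2), 0.73 (Cd200), 0.69 (Dkk3), -0.85 (Prom1) and -0.42 (Galnt11).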
